A study of Homo sapiens with 12 samples.

Results

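HEK293T cells that carried dCas9 fused to the catalytic core of p300 (dCas9-p300 core) were compared with HEK293T cells that carried dCas9 fused to the VP64 activation domain (dCas9-VP64), across all genes. The comparison used the 6 libraries with these labels, 3 of each, out of 12 libraries in the study. HEK293T is a human embryonic kidney line that expresses the SV40 large T antigen. Every library came from cells transfected with plasmids by lipofection, so transfected and untransfected cells were lysed together, and all of them received guide RNAs directed to 4 sites of the IL1RN gene. The other groups, which serve here only to place levels, were dCas9-p300 D1399Y, a core with an acetyltransferase-null substitution (3 libraries), and dCas9 alone (3 libraries). RNA was polyadenylated RNA from bulk lysates, in which fewer cells making a transcript and less transcript per cell cannot be told apart. The labels do not say that the triplicates were separate cultures, so the p-values cover only the spread among these libraries, which may be technical.

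dCas9 is a Cas9 without nuclease activity that guide RNAs bring to a chosen DNA site. VP64 is a tandem repeat of a short activation motif of the herpes simplex virus protein VP16 and acts by recruiting Mediator and other parts of the transcription machinery. p300 is a histone acetyltransferase and co-activator, and its catalytic core acetylates histone H3 at lysine 27, a mark of active promoters and enhancers. The comparison therefore sets a fused acetyltransferase core against a fused activation domain, with guide RNAs to the same sites. Neither histone acetylation nor recruitment was measured in these RNA libraries.

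Total counts in the 3 core libraries were 3778675, 5154627 and 3825418, against 4104479, 3946902 and 3873764 in the 3 VP64 libraries. Core replicate 3 was in pool CV42 and the other 5 libraries were in pool CV41, per their descriptions. On the leading principal component of log2 CPM over the genes tested, which held 34.5% of the variance, the core libraries lay at -5.98, 7.60 and 23.8 and the VP64 libraries at -18.8, -19.0 and 12.3, so the groups overlapped, while within each replicate number the core library lay above the VP64 library. Genes of embryonic kidney lines, such as VIM, NES and CDH2, summed to 488 to 558 CPM in core libraries and 497 to 559 CPM in VP64 libraries. A filter on low counts left 14259 genes to test. Levels below are in CPM, counts relative to TMM-scaled library sizes, on a common scale for all 12 libraries, and fold changes, standard errors and adjusted p-values (edgeR quasi-likelihood test, Benjamini-Hochberg) come from a fit of the 6 libraries.

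With dCas9-p300 core, 6 genes were higher than with dCas9-VP64 at an adjusted p under 0.05 and 0 were lower. They were IL1RN, KDR, CRISPLD2, VSIR, CYRIA and EP300, and made up 0.0421% of the genes tested. Before adjustment, 760 genes had a p under 0.05 (524 higher and 236 lower in core libraries), against 713.0 expected by chance. DESeq2 and limma-voom also called 0 genes lower. Deviations of core and VP64 libraries from their group means correlated at 0.279, 0.254 and 0.357 for libraries of the same replicate number. That contrast is partly built in, the labels do not state a pairing, and a pairing by number is not settled. A fit with the replicate number as a block called 57 genes, 51 higher (0.358%) and 6 lower (0.0421%), which included all 6 genes above. Most genes differed little: 96.1% lay within 0.5 log2 of equality, and the median log2 fold change over all genes was -0.01.

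The windows of 250 bases before the starts that RefSeq lists for the called genes are shown because they are the promoters of the genes that rose. The RefSeq table matched 4 of the 5 called genes other than EP300, which is taken up apart below. Coordinates are on GRCh38.p14, and a start on the minus strand is written 5′ to 3′ along the gene. IL1RN has an upstream start, which gives rise to intracellular forms of the protein, and downstream starts that include the start of the secreted form. The upstream window is chr2:113117721-113117970 and the downstream window shown is chr2:113127348-113127597, both on the plus strand. The KDR window is chr4:55125596-55125845 on the minus strand. The CRISPLD2 window is chr16:84819735-84819984 on the plus strand and the VSIR window is chr10:71773521-71773770 on the minus strand. Capitals mark GGGCGG, the GC box, on either strand (CCGCCC on the other), and TATAAA, the TATA box, on either strand, whose matches overlap in 1 run of 8 capitals in the downstream IL1RN window.
IL1RN upstream start: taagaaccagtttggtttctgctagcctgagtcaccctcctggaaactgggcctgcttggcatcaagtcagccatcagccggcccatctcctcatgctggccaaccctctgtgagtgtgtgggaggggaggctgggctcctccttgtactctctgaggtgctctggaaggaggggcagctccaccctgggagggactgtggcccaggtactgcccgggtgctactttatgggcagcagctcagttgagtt
IL1RN downstream start: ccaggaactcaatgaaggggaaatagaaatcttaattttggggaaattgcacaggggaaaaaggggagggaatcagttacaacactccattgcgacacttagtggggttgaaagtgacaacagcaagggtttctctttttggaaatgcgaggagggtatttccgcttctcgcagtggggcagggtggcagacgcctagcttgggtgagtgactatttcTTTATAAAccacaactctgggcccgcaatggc
KDR: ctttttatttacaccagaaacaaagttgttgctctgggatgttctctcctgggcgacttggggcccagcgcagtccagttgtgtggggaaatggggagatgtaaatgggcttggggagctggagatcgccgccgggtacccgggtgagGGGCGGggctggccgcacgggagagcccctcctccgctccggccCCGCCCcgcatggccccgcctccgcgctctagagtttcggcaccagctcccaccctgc
CRISPLD2: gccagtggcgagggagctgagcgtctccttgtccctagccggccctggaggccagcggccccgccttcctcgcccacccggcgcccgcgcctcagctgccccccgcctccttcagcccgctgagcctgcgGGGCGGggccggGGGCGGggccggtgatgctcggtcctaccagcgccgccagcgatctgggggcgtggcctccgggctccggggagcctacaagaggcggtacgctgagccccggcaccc
VSIR: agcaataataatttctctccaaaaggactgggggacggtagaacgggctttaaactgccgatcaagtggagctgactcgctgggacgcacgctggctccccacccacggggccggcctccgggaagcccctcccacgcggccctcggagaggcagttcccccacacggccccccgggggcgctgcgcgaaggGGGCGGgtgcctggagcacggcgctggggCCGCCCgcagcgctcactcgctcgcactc

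The KDR, CRISPLD2 and VSIR windows each held 2 GC boxes and no TATA box, and none of the 3 IL1RN windows held a GC box. The downstream IL1RN window held the TATA box in both orientations, as overlapping matches. Over 35116 RefSeq promoter windows of the same length, 42.6% held GGGCGG and 10.7% held TATAAA. The CCAAT box, which 32.0% of all windows held on either strand, was in none of the windows listed for these genes. CG dinucleotides numbered 17 in the KDR window, 27 in the CRISPLD2 window and 25 in the VSIR window, against 2 and 6 in the IL1RN windows printed and a median of 11 over all windows. A letter match is a description and does not show that a factor binds. The position of these windows relative to the guide sites was not analysed here, since guide sequences were not given in the sources used here.

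IL1RN, the guided gene, encodes the interleukin 1 receptor antagonist, a secreted or intracellular protein that occupies the interleukin 1 receptor without signalling. Its reads numbered 278, 455 and 339 in core libraries, against 95, 76 and 123 in VP64 libraries. Its level was 73.2, 87.6 and 89.3 CPM in core libraries, against 23.4, 19.3 and 31.3 CPM in VP64 libraries. Each core library lay above every VP64 library. With dCas9-p300 core it was 3.37-fold higher than with dCas9-VP64 (95% interval 2.67 to 4.25), a log2 fold change of 1.75 ± 0.16 (SE, n = 3 each) with an adjusted p of 2.18e-05 by edgeR.

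The other 2 groups place this difference. IL1RN stood at 6.49, 7.55 and 9.28 CPM in D1399Y libraries and at 4.24, 6.68 and 9.48 CPM in dCas9 libraries, all below the lowest VP64 library. In a fit of all 12 libraries, core over dCas9 was 3.64 ± 0.26 on the log2 scale (SE, edgeR adjusted p = 1.98e-05, with 0.0137% of genes called higher) and VP64 over dCas9 was 1.89 ± 0.27 (adjusted p = 0.0873, with 0.0% of genes called). With the replicate block in that fit, VP64 over dCas9 passed for IL1RN (1.88 ± 0.21, adjusted p = 0.0241), although VP64 and dCas9 libraries of the same number correlated at 0.467, 0.0315 and 0.229, not all above 0.1. D1399Y over dCas9 was 0.23 ± 0.30 (adjusted p = 0.743). These comparisons share the dCas9 libraries, and dCas9 replicate 3, with 2442960 counts, was the shallowest of the study. IL1RN was the only gene called for core over VP64 in that fit, which pools the spread of all 4 groups (log2 fold change 1.76, adjusted p = 0.0235), and adding the pool as a covariate ended that call (1.67, adjusted p = 0.144).

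The files list 4 transcripts of IL1RN. In a fit of 24959 single transcripts, all 4 were higher with dCas9-p300 core, at log2 1.69 ± 0.20 for NM_000577, 1.79 ± 0.22 for NM_173841, 1.595 ± 0.211 for NM_173842 and 1.92 ± 0.22 for NM_173843 (SE, edgeR adjusted p between 7.65e-05 and 0.000341). Within a library their counts were alike, such as 74, 68, 67 and 69 in core replicate 1 and 24, 24, 24 and 23 in VP64 replicate 1. The use of a given start cannot be read from these counts, with the rule for reads shared by isoforms not given in the sources used here.

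KDR encodes vascular endothelial growth factor receptor 2, the main signalling receptor for VEGFA. It was counted 27, 46 and 34 times in core libraries, against 2, 7 and 6 times in VP64 libraries. The level was 7.11, 8.85 and 8.95 CPM in core libraries and 0.493, 1.78 and 1.53 CPM in VP64 libraries. The lowest core library was above the highest VP64 library. The difference was 6.47-fold (95% interval 3.81 to 11.01), or 2.69 ± 0.36 on the log2 scale (SE, n = 3 each, edgeR adjusted p = 0.00383). D1399Y libraries held 2.16, 0.581 and 1.59 CPM and dCas9 libraries 0.847, 1.67 and 0.759 CPM, levels that overlapped those with VP64 (VP64 over dCas9 0.13 ± 0.57 on the log2 scale).

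CRISPLD2 encodes a secreted protein of the CAP superfamily with LCCL domains that binds lipopolysaccharide. It had 39, 50 and 40 reads in core libraries, against 11, 10 and 8 reads in VP64 libraries. Its level was 10.3, 9.62 and 10.5 CPM in core libraries, against 2.71, 2.54 and 2.04 CPM in VP64 libraries. The groups did not overlap, and the 3 core libraries lay close together. CRISPLD2 was 4.11-fold higher with dCas9-p300 core (95% interval 2.74 to 6.18), a log2 fold change of 2.04 ± 0.28 (SE, n = 3 each, edgeR adjusted p = 0.00383). With D1399Y it stood at 2.71, 2.32 and 3.71 CPM and with dCas9 alone at 3.95, 5.01 and 1.14 CPM, and VP64 over dCas9 was -0.55 ± 0.40 on the log2 scale.

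VSIR encodes VISTA, an immune checkpoint receptor of the B7 family. It had few reads, with 17, 35 and 20 reads in core libraries and 5, 3 and 5 reads in VP64 libraries. Its level was 4.48, 6.74 and 5.27 CPM in core libraries, against 1.23, 0.763 and 1.27 CPM in VP64 libraries. The groups did not overlap. The fold change was 4.99 (95% interval 2.90 to 8.60), 2.32 ± 0.37 on the log2 scale (SE, n = 3 each, edgeR adjusted p = 0.0249). D1399Y libraries held 0.812, 1.16 and 1.33 CPM and dCas9 libraries 0.565, 1.43 and 3.79 CPM, of which the highest was dCas9 replicate 3.

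CYRIA encodes a protein that binds the GTPase Rac1, a driver of actin branching at the cell edge. It had 37, 49 and 34 reads in core libraries, against 14, 12 and 10 in VP64 libraries. Levels of CYRIA were 9.74, 9.43 and 8.95 CPM with dCas9-p300 core, against 3.45, 3.05 and 2.55 CPM with dCas9-VP64, and did not overlap. It was 3.08-fold higher (95% interval 2.07 to 4.57), 1.62 ± 0.27 on the log2 scale (SE, n = 3 each, edgeR adjusted p = 0.0324). D1399Y libraries held 2.71, 5.81 and 2.39 CPM and dCas9 libraries 0.847, 3.102 and 2.28 CPM.

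KDR and VSIR had fewer than 10 reads in every VP64 library and CRISPLD2 had 10 or fewer in 2 of 3, so these 3 genes passed the filter, which needs 3 libraries at 2.56 CPM or more, through the core libraries. VSIR and CYRIA did not pass in DESeq2 (adjusted p 0.108 and 0.0726). VSIR passed in 9 of 17 alternative fits and CYRIA in 7 of 17. Leaving out VP64 replicate 1, VP64 replicate 2, VP64 replicate 3 or core replicate 2 ended the call of VSIR (adjusted p 0.124, 0.313, 0.0767 and 0.296), and leaving out any 1 of the 6 libraries ended that of CYRIA (adjusted p 0.0515 to 0.274). KDR, CRISPLD2 and EP300 lost their calls in the fit of all 12 libraries (adjusted p 0.0771, 0.141 and 0.131) and kept them when any 1 of the 6 libraries was left out.

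**Figure D1:**
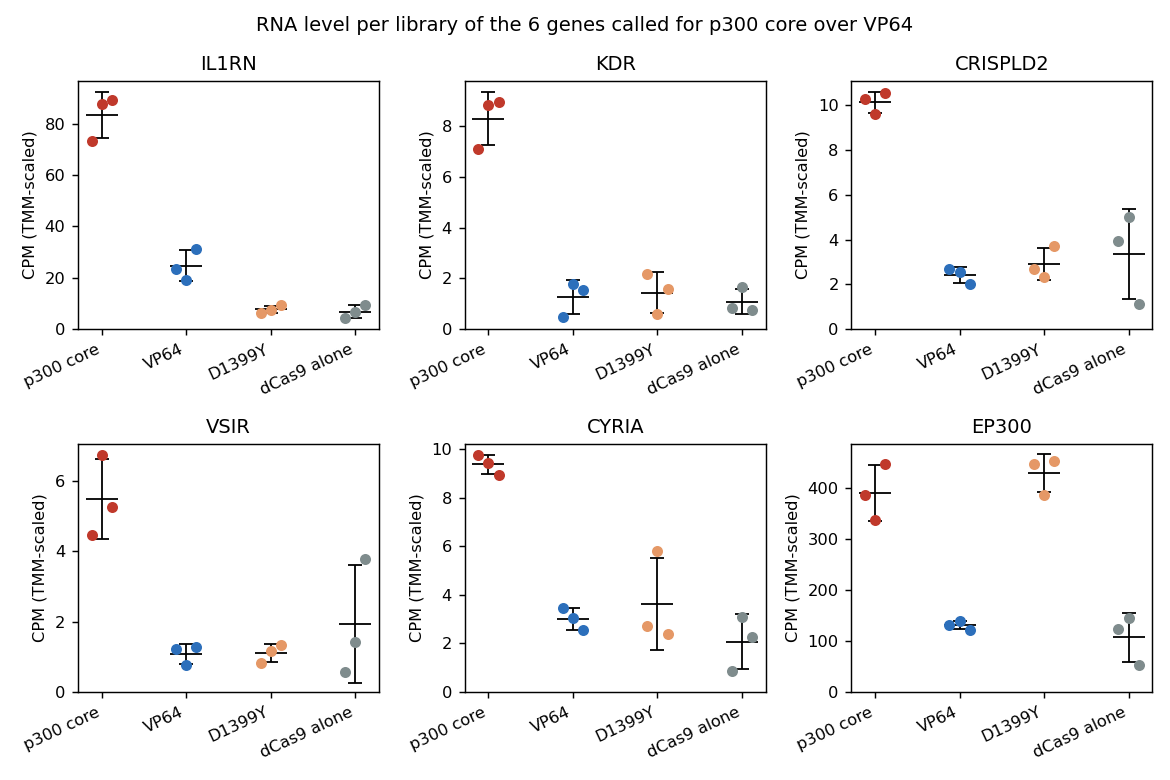
Level in CPM on TMM-scaled library sizes (y axis, from 0) of the 6 genes called for core over VP64, by group (x axis); points are libraries, the wide line is the mean and bars are 1 SD over 3 libraries. For IL1RN the core libraries (73.2 to 89.3 CPM) stand above the VP64 libraries (19.3 to 31.3 CPM), which stand above the D1399Y and dCas9 libraries. For KDR, CRISPLD2, VSIR and CYRIA the core libraries stand above all others, for VSIR by little (4.48 CPM against 3.79 CPM in dCas9 replicate 3). In the 12-library edgeR fit these genes did not pass for core over dCas9 (adjusted p 0.0522, 0.817, 0.870 and 0.279). They did not pass for core over D1399Y either (0.168, 0.384, 0.465 and 0.9998). EP300 is high with both p300 plasmids.

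EP300 encodes p300 itself. It had 1468, 1757 and 1705 reads in core libraries, against 534, 548 and 481 in VP64 libraries. Its level was 387, 338 and 449 CPM in core libraries, against 132, 139 and 122 CPM in VP64 libraries. The log2 fold change was 1.57 ± 0.11 (SE, n = 3 each, edgeR adjusted p = 8.24e-07), a fold of 2.97 (95% interval 2.53 to 3.50). D1399Y libraries, whose plasmid also carries a p300 core, held 448, 388 and 454 CPM and dCas9 libraries held 124, 145 and 53.1 CPM. EP300 was the 1 gene called for D1399Y over dCas9 (1.99 ± 0.26 on the log2 scale, adjusted p = 0.0368), of 14621 genes tested there (0.00684%), and it did not pass with the replicate block (2.02 ± 0.27, adjusted p = 0.141). Core over D1399Y was -0.14 ± 0.25 for EP300. Reads from the transfected p300 sequence and from the cells' own EP300 gene cannot be told apart in a count per transcript, so the source of the EP300 difference was not tested. EP300 was higher in every core and D1399Y library than in any VP64 or dCas9 library, and its level does not separate the core label from the D1399Y label.

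**Figure D2:**
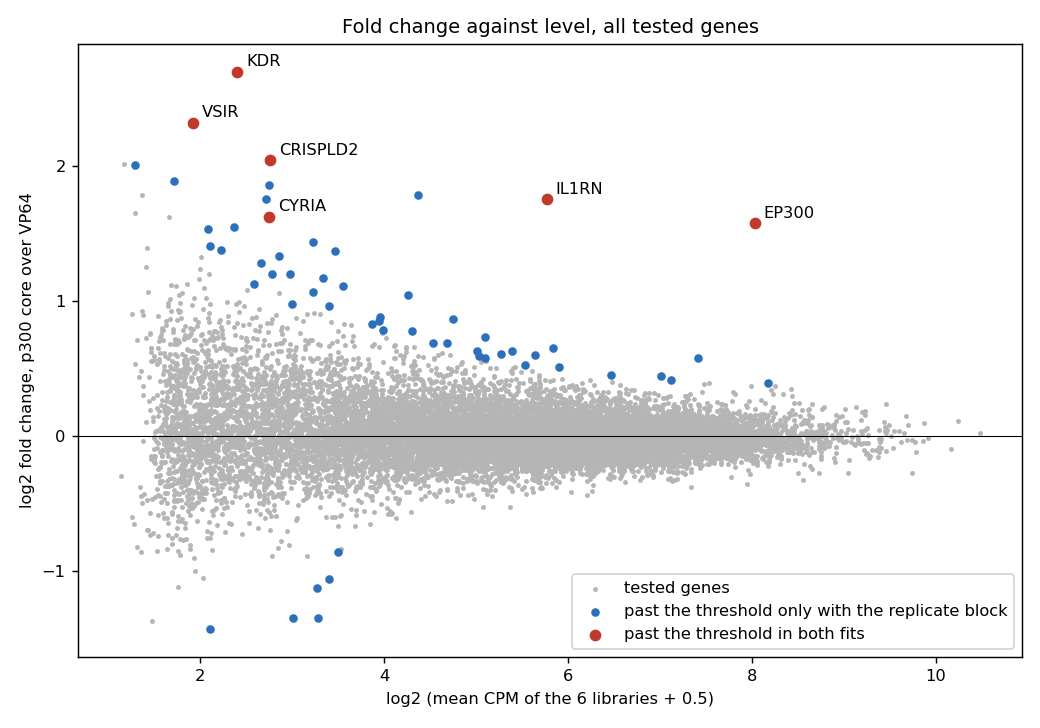
Log2 fold change of core over VP64 (y axis) against log2 of the mean CPM of the 6 libraries plus 0.5 (x axis), 1 point per tested gene; red points passed the threshold in both fits and blue points passed it with the replicate block alone. The cloud is centred near 0 and widens at low levels, and KDR has the highest fold change of the red points.

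Of the genes tested, 48 were at least 2-fold higher and 9 at least 2-fold lower with dCas9-p300 core, whatever their p. At an unadjusted p under 0.001 there were 37 genes, 32 higher and 5 lower, where 14.3 are expected by chance. The libraries of the groups did not overlap for 754 genes with the core higher (5.29%) and for 697 genes with the core lower (4.89%).

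The next 4 higher genes by p passed the threshold with the replicate block. DHRS2, a short-chain dehydrogenase/reductase, stood at 48.7, 20.02 and 25.3 CPM in core libraries and at 12.6, 5.596 and 8.66 CPM in VP64 libraries. Its log2 fold change was 1.78 ± 0.31, with an edgeR adjusted p of 0.0507 without the block and 4.84e-08 with it. Core replicate 1 and VP64 replicate 1 were each the highest of their group. DHRS2 stood at 5.41, 4.36 and 5.04 CPM in D1399Y libraries, all below the lowest core library. In dCas9 libraries it stood at 9.035, 6.92 and 24.3 CPM. The highest of these was dCas9 replicate 3, which overlapped the core libraries. Core over dCas9 was 1.27 ± 0.43 on the log2 scale in the fit of all groups and did not pass (edgeR adjusted p 0.870).

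NFASC, a cell adhesion molecule of the L1 family found at nodes of Ranvier, had levels of 15.0, 13.7 and 17.1 CPM in core libraries, against 7.64, 4.32 and 5.602 CPM in VP64 libraries. PDE2A, a phosphodiesterase of cyclic nucleotides, had levels of 7.11, 12.5 and 9.48 CPM in core libraries, against 2.22, 1.78 and 4.07 CPM in VP64 libraries. SPOCK1, which encodes the proteoglycan testican-1, had levels of 7.11, 11.4 and 9.48 CPM in core libraries, against 3.20, 1.53 and 3.57 CPM in VP64 libraries. For none of the 3 did the groups overlap, which held with the core higher for 5.29% of all genes tested and is favoured by choice on small p. Log2 fold changes were 1.37 ± 0.24 for NFASC, 1.86 ± 0.33 for PDE2A and 1.75 ± 0.32 for SPOCK1, with edgeR adjusted p-values of 0.0507, 0.0507 and 0.0581 without the block and 0.000578, 0.000578 and 0.0011 with it.

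Beyond these, the genes with the smallest p in the blocked fit were picked after their values were seen. TGM2, the cross-linking enzyme transglutaminase 2, stood at 13.7, 15.2 and 9.74 CPM in core libraries and 3.94, 6.61 and 3.82 CPM in VP64 libraries (adjusted p 0.000713 with the block, 0.0902 without). FBLN2, the matrix protein fibulin-2, stood at 11.6, 11.4 and 17.1 CPM in core libraries and 4.19, 5.34 and 8.15 CPM in VP64 libraries (adjusted p 0.00411 with the block, 0.305 without). HSPG2, which encodes the basement membrane proteoglycan perlecan, stood at 47.9, 45.2 and 58.2 CPM in core libraries and 39.9, 22.4 and 35.1 CPM in VP64 libraries (adjusted p 0.0230 with the block, 0.541 without). The lowest core library was above the highest VP64 library for each of these genes, against 5.29% of all genes tested. Choice by small p in the same libraries favours this. HSPG2 stood at 51.1, 29.3 and 44.0 CPM in D1399Y libraries, which overlapped the core libraries, and at 43.8, 40.8 and 16.7 CPM in dCas9 libraries. For TGM2 and FBLN2 every D1399Y and dCas9 library lay below the lowest core library.

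DYSF, which encodes dysferlin, a protein of membrane repair, stood at 17.4, 11.2 and 17.9 CPM in core libraries and 7.88, 5.596 and 7.64 CPM in VP64 libraries. PADI2, which converts arginine to citrulline in histones and other proteins, stood at 30.8, 33.7 and 37.9 CPM in core libraries and 18.2, 13.5 and 24.5 CPM in VP64 libraries. IL10RA, a chain of the interleukin 10 receptor, stood at 7.64, 10.8 and 12.4 CPM in core libraries and 4.44, 3.82 and 5.09 CPM in VP64 libraries. The 3 genes passed with the block (adjusted p 0.00304, 0.00249 and 0.0130) and did not pass without it (0.255, 0.255 and 0.259). HPCAL4, HELZ2, NEDD9, KIF21B, PDZD2 and CLSTN2 were also higher than with dCas9-VP64 in the blocked fit, by 0.66 to 1.55 on the log2 scale. Of the 57 genes called with the block, 48 had groups that did not overlap, and 26 differed by less than 2-fold. Over all genes tested, groups did not overlap for 5.29% with the core higher and 4.89% with the core lower. Choice by small p in the same libraries favours groups that do not overlap, so the 48 are no separate support. The 51 higher genes ran from 0.39 to 2.69 on the log2 scale.

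Fewer genes were lower with dCas9-p300 core than with dCas9-VP64, and 6 were called lower in the fit with the block. Against dCas9 in the 12-library fit, core lay below 0 and VP64 above 0 for each of the 6, and none passed. Core over dCas9 was -0.48 for DNAH17, -1.08 for LIF, -1.03 for NECTIN4, -0.59 for NHLH2, -0.68 for TP53I3 and -0.84 for TNFRSF10B-AS1. In the same order, VP64 over dCas9 was 0.64, 0.26, 0.31, 0.46, 0.18 and 0.59. DNAH17, a heavy chain of axonemal dynein, stood at 5.00, 6.16 and 6.06 CPM in core libraries, against 12.6, 13.5 and 11.7 CPM in VP64 libraries. Its log2 fold change was -1.12 ± 0.23 (SE, edgeR adjusted p 0.134 without the block, 0.00698 with it). LIF, a cytokine of the interleukin 6 family, stood at 6.58, 4.81 and 1.32 CPM in core libraries, against 10.4, 10.4 and 11.97 CPM in VP64 libraries. Its log2 fold change was -1.35 ± 0.34 (adjusted p 0.377 without the block, 0.0167 with it), and core replicate 3 was the lowest library.

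NECTIN4, an adhesion molecule of adherens junctions, stood at 9.22, 3.46 and 3.16 CPM in core libraries, against 16.3, 13.7 and 9.42 CPM in VP64 libraries. NHLH2, a neuronal basic helix-loop-helix factor, stood at 9.22, 5.77 and 4.74 CPM in core libraries, against 16.8, 11.2 and 12.7 CPM in VP64 libraries. TP53I3, an oxidoreductase induced by p53, stood at 7.64, 8.66 and 6.58 CPM in core libraries, against 14.3, 15.8 and 11.7 CPM in VP64 libraries. Log2 fold changes were -1.35 ± 0.34 for NECTIN4, -1.06 ± 0.27 for NHLH2 and -0.86 ± 0.22 for TP53I3, with adjusted p-values of 0.00191, 0.0136 and 0.0384 with the block and 0.377, 0.377 and 0.437 without it.

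TNFRSF10B-AS1, an antisense RNA, was the other lower gene called with the block (-1.43 ± 0.33, adjusted p 0.0303 with the block, 0.305 without). Its partner TNFRSF10B was at -0.16 ± 0.13 (adjusted p 0.969), and, with the strand setting not given in the sources used here, reads of the pair cannot be told apart. PDCD4-AS1 was at -1.05 ± 0.31 and its partner PDCD4 at -0.15 ± 0.09, neither called in either fit. CES5A, a carboxylesterase, TMEM67, a protein of the ciliary transition zone, and BTG2, an antiproliferative p53 target, had log2 fold changes of -1.37 ± 0.37, -0.44 ± 0.12 and -0.52 ± 0.16 and were called in neither fit (adjusted p 0.480, 0.480 and 0.648 without the block). For all 10 lower genes named by the rule the highest core library was below the lowest VP64 library, against 4.89% of all genes tested. Their choice by small p in the same libraries favours this.

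**Figure D3:**
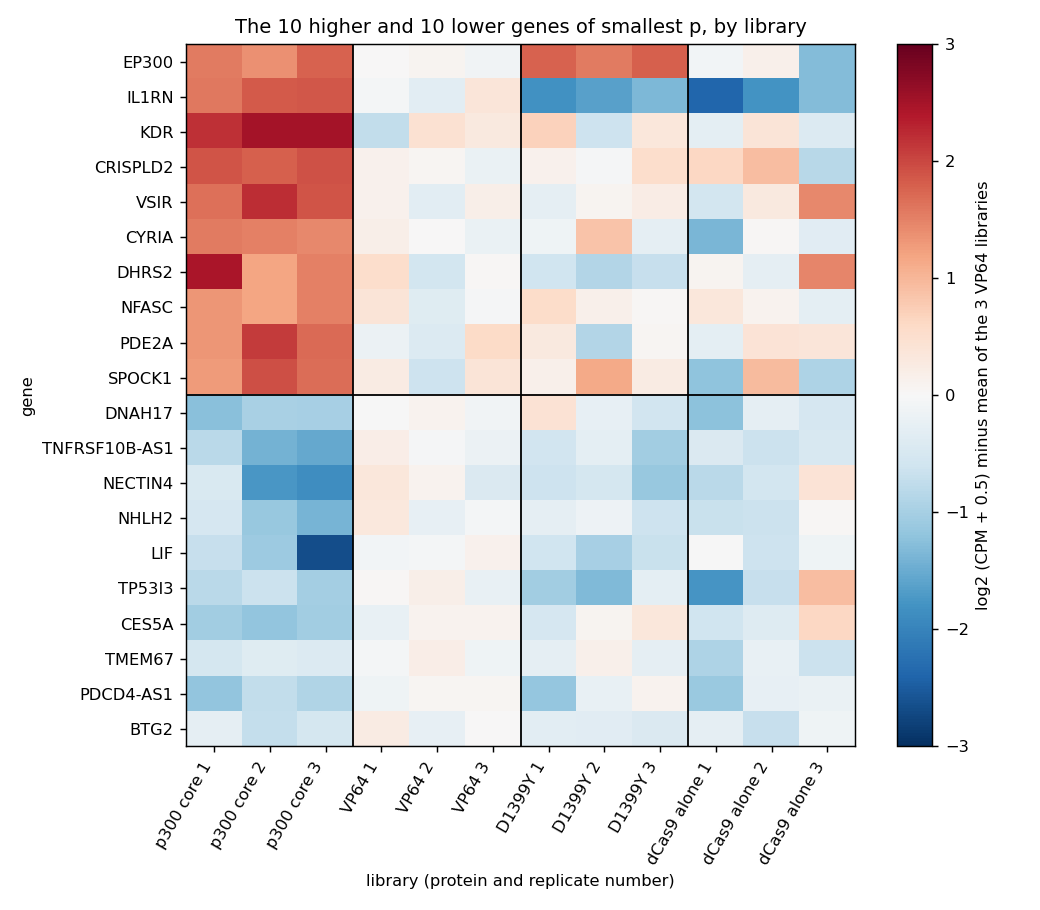
Log2 of CPM plus 0.5 minus the mean of the 3 VP64 libraries (colour) for the 10 higher and 10 lower genes of smallest p (rows), in each of the 12 libraries (columns). The higher genes are red in all 3 core libraries and, other than EP300, close to the VP64 level or below it in most D1399Y and dCas9 libraries; IL1RN is blue in all D1399Y and dCas9 libraries, where its level was 4.24 to 9.48 CPM.

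Gene lists for pathways around the guided gene, the expressed proteins and the state of the cells held 356 tested genes in all. IL1RN, KDR, CRISPLD2 and EP300 were the list members called, and 0 of the other 352 passed by edgeR, DESeq2 or limma-voom. Of these 352, 25 (7.1%) had an unadjusted p under 0.05, against 5.3% of all genes tested, and TP53I3 alone passed with the block. Over all genes, 48.6% lay above 0.

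In the interleukin 1 family, 5 of 22 ligands, receptors and antagonists could be tested, 1 passed (IL1RN, higher), 4 were above 0 and the median was 0.28. IL1RAP, the shared accessory chain of the receptors, stood at 26.3, 42.3 and 31.9 CPM in core libraries and 31.3, 25.7 and 26.5 CPM in VP64 libraries, a log2 difference of 0.28 ± 0.18 (edgeR adjusted p = 0.960). IL1A and IL1B, the agonist ligands, had 0 and 2 reads over the 3 core libraries and 1 and 0 over the 3 VP64 libraries. The antagonist and ligand genes next to IL1RN in the interleukin 1 cluster, IL36A, IL36B, IL36G, IL36RN, IL37 and IL1F10, had no read in any of the 6 libraries. Among 20 genes of receptor signalling, 0 passed, 7 were above 0 and the median was -0.03.

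Among genes that flank IL1RN on its chromosome, 9 were tested, 0 passed and the median was -0.04. PSD4 had levels of 6.58, 7.70 and 10.8 CPM in core libraries and 6.16, 5.34 and 8.40 CPM in VP64 libraries, a log2 difference of 0.32 ± 0.27 (edgeR adjusted p = 0.969). SLC35F5 differed by -0.16 ± 0.13 (adjusted p = 0.969) and SLC20A1 by -0.06 ± 0.10 (adjusted p = 0.981).

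Of the VEGF ligands, receptors and co-receptors, 9 of 10 were tested, KDR was the 1 that passed, 5 were above 0 and the median was 0.04. The other receptors FLT1 and FLT4 had log2 differences of 0.07 ± 0.13 and 0.29 ± 0.13, the ligand VEGFA 0.04 ± 0.16, and the co-receptor NRP2 0.35 ± 0.11 (edgeR adjusted p 0.982, 0.919, 0.997 and 0.763). NRP2 stood at 78.7, 77.8 and 82.2 CPM in core libraries, against 57.9, 61.8 and 67.2 CPM in VP64 libraries. Of the CAP superfamily, 7 of 15 were tested, CRISPLD2 was the 1 that passed, 3 were above 0 and the median was -0.14. Its closest relative CRISPLD1 averaged 48.4 ± 4.20 CPM in core libraries and 53.3 ± 6.56 CPM in VP64 libraries (SD, n = 3 each), a log2 difference of -0.14 ± 0.13 (edgeR adjusted p = 0.972).

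Chromatin regulators were described because the compared proteins act through them. Of 17 histone acetyltransferases, EP300 was the 1 that passed, 11 were above 0 and the median was 0.05. CREBBP, the paralog of p300, averaged 175 ± 33.5 CPM in core libraries and 167 ± 11.4 CPM in VP64 libraries (SD, n = 3 each; log2 difference 0.06 ± 0.12, edgeR adjusted p = 0.982). Of 18 histone deacetylases and their co-repressors, 0 passed, 9 were above 0 and the median was 0.00. HDAC10, a polyamine deacetylase, stood at 5.00, 5.39 and 6.06 CPM in core libraries, against 7.39, 9.16 and 10.2 CPM in VP64 libraries, and its log2 difference of -0.70 ± 0.25 did not pass (edgeR adjusted p = 0.860). Of 30 Mediator subunits, the complex that VP64 recruits, 0 passed, 11 were above 0 and the median was -0.07. None passed among 22 bromodomain readers of acetyl-lysine (14 above 0, median 0.03) or 20 subunits of the BAF remodeller (15 above 0, median 0.07).

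Stress and growth programmes showed no called gene in either direction without the block. Of 17 p53 targets, 1 was above 0 and the median was -0.15, with a range of -0.29 to -0.09 when each library was left out, and TP53I3 was called lower with the block. BTG2 stood at 39.2, 29.1 and 32.9 CPM in core libraries, against 56.4, 40.2 and 47.9 CPM in VP64 libraries. The p53 target CDKN1A differed by -0.01 ± 0.14 and MDM2, the ubiquitin ligase of p53, by -0.20 ± 0.11 (edgeR adjusted p 0.999 and 0.960). Large T antigen, which HEK293T cells carry, binds p53. None of 31 cytosolic ribosomal protein genes was above 0, at a median of -0.05 that ran from -0.15 to 0.02 when each library was left out.

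Of 17 genes of cholesterol synthesis, 15 were above 0 at a median of 0.10 and 0 passed. DHCR7, the last enzyme of a branch of the pathway, stood at 132, 125 and 129 CPM in core libraries, against 110, 91.8 and 117 CPM in VP64 libraries (0.27 ± 0.11 on the log2 scale, edgeR adjusted p = 0.872). Of 17 interferon-stimulated genes, 13 were above 0 at a median of 0.12 and 0 passed, with OAS3, an RNA sensor, at 0.63 ± 0.28 (adjusted p = 0.908). Medians of genes of the unfolded protein and integrated stress response (18 tested), heat shock (13), immediate early and CREB targets (24), hypoxia (16), proliferation (22) and replication-dependent histones (9) lay between -0.10 and 0.07, and 0 passed. ERN1, the kinase that senses unfolded protein, stood at 28.2, 30.8 and 29.2 CPM in core libraries, against 19.0, 20.9 and 17.8 CPM in VP64 libraries, and its log2 difference of 0.61 ± 0.16 did not pass (adjusted p 0.429, and 0.0567 with the block). POU5F1, known as a target in other activation experiments with these proteins, differed by 0.46 ± 0.27 (adjusted p = 0.960).

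**Figure D4:**
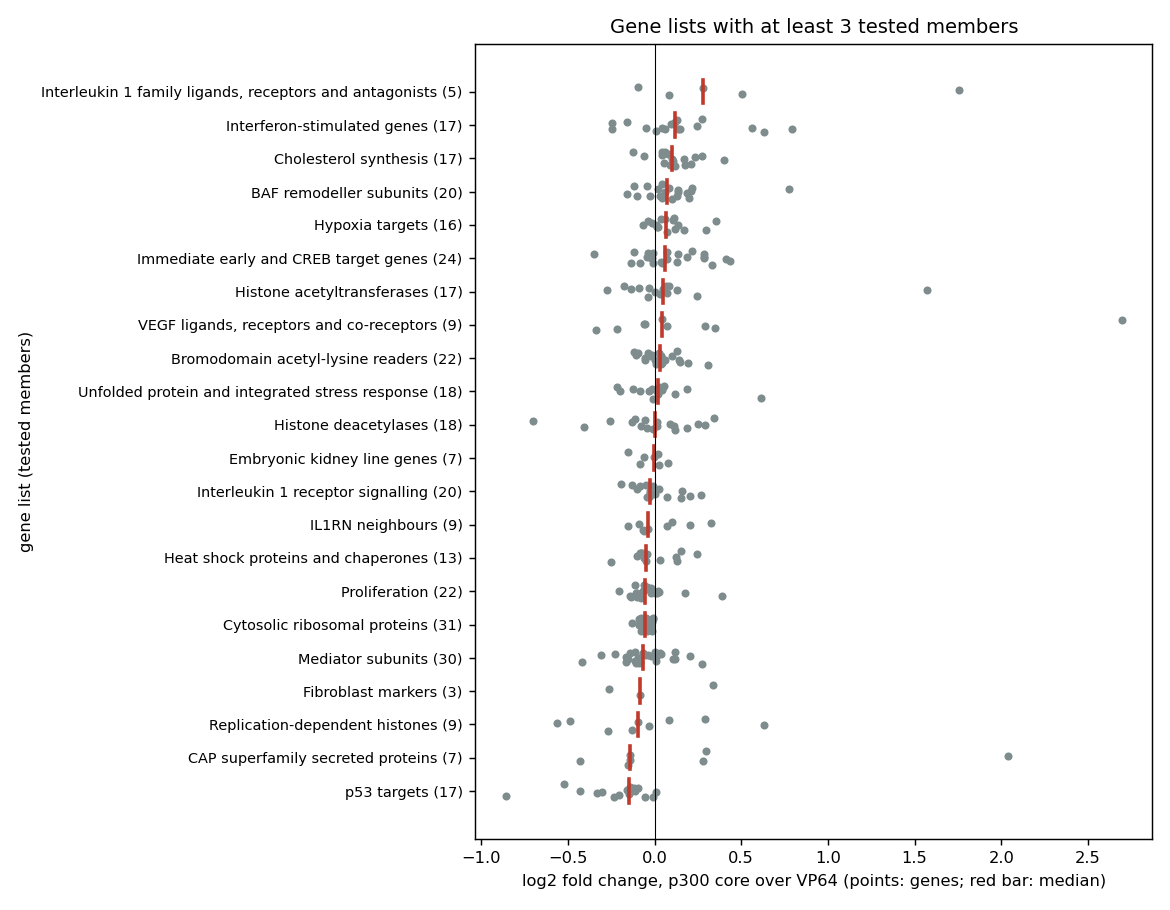
Log2 fold change of core over VP64 (x axis) of each tested gene (points) in the gene lists with at least 3 tested members (rows, with their number), with the median as a red bar. The medians lie between -0.15 and 0.28, and the points beyond 1 are IL1RN, EP300, KDR and CRISPLD2.

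Markers of other cell types were summed in each library. Endothelial markers, of interest because KDR is best known in endothelium, summed to 7.31 to 11.3 CPM in core libraries and 5.42 to 6.61 CPM in VP64 libraries. ERG was at 0 in all 6 libraries, and CDH5 had 0 reads in core libraries and 1 in VP64 libraries. ESAM had 33 reads over core libraries and 9 over VP64 libraries, and none of the 9 endothelial markers had enough reads to be tested. Immune markers, of interest beside VSIR and IL10RA, summed to 7.70 to 11.3 CPM in core libraries and 6.36 to 9.68 CPM in VP64 libraries, with CD3E and MS4A1 at 0 in all 6. CD68, a macrophage marker, stood at 6.58, 3.46 and 4.48 CPM in core libraries, against 2.22, 1.53 and 2.55 CPM in VP64 libraries, and did not pass (edgeR adjusted p = 0.704). LYZ had 45 reads over core libraries and 45 over VP64 libraries, CD14 had 11 and 14, ITGAM 2 and 3, and PTPRC 7 and 5. Fibroblast markers, beside FBLN2 and HSPG2, summed to 31.9 to 33.1 CPM in core libraries and 29.3 to 30.3 CPM in VP64 libraries, of which COL1A1 was 19.4 ± 2.26 CPM in core libraries and 15.3 ± 1.32 CPM in VP64 libraries (SD, n = 3 each). The log2 difference of COL1A1 was 0.34 ± 0.18, against -0.09 ± 0.28 for COL3A1 and -0.26 ± 0.36 for PDGFRA (SE, edgeR adjusted p 0.960, 0.993 and 0.975). Epithelial markers, beside NECTIN4, summed to 30.4 to 43.5 CPM in core libraries and 29.5 to 36.7 CPM in VP64 libraries, with KRT5, KRT14 and KRT1 at 0 in all 6. Most of that sum was CDH1, at 28.7 ± 7.08 CPM in core libraries and 23.2 ± 3.08 CPM in VP64 libraries (SD, n = 3 each). EPCAM, an epithelial adhesion protein, stood at 5.53, 3.27 and 4.74 CPM in core libraries, against 7.64, 11.2 and 5.86 CPM in VP64 libraries. Its groups did not overlap, with EPCAM lower in core libraries as NECTIN4 was, and its log2 difference of -0.89 ± 0.31 did not pass (edgeR adjusted p 0.819, and 0.163 with the block). The part of cells of other types in the differences of KDR, VSIR, IL10RA, NECTIN4, FBLN2 and HSPG2 was not tested.

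**Figure D5:**
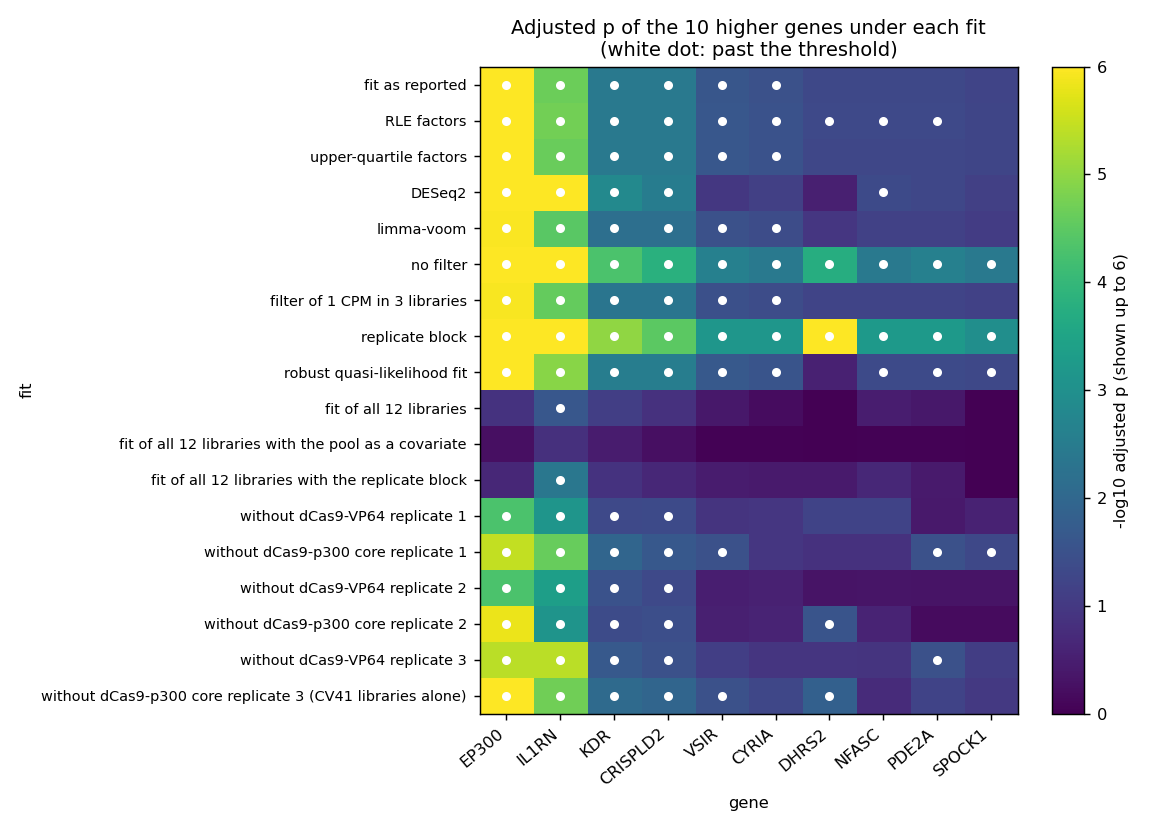
Size of the edgeR, DESeq2 or limma-voom adjusted p as -log10 (colour, shown up to 6) of the 10 higher genes (x axis) under each fit (y axis), with a white dot where the gene passed 0.05. IL1RN passed in 16 of 17 alternative fits and KDR, CRISPLD2 and EP300 in 14 of 17, and their calls ended only in fits of all 12 libraries. Calls of VSIR (9 of 17) and CYRIA (7 of 17) also ended in DESeq2 and in fits that left out a library.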

How the data were processed

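The deposited values are whole-number read counts, 1 table per library. The submitters' processing notes name hg19 and, as tools, DESeq2 1.6.2, R 3.1.2, Bowtie2, SAMtools and CASAVA. Their roles, the strand setting, the sharing of reads among isoforms and any removal of duplicates were not given in the sources used here. ACTB held 0.019% to 0.0235% of the counts of a library. Any limit on reads of abundant transcripts could narrow their fold changes.

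The 40709 RefSeq transcripts were named through RefSeq (39324) and GENCODE v29 (517), and 868 kept their identifier (1.07% of the counts of the 6 libraries). Both naming tables belong to GRCh38, so no coordinates were taken from the counts. Transcripts were summed to 24408 features, 23540 of them named genes. NT5DC4, BRD1 and CECR2 were not analysed here.

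edgeR 4.0.16 in R 4.3.3 was run on the 3 core and 3 VP64 libraries, with TMM factors, filterByExpr (minimum count 10, minimum total 15) and the two-sided quasi-likelihood test, adjusted by Benjamini-Hochberg at 0.05. Standard errors were taken from the F statistic. The code was tested on simulated data. Alternatives were DESeq2 1.42.0, limma-voom 3.58.1, other scaling factors, filters and a robust fit, fits of all 12 libraries, a fit with the replicate number as a block, and leaving out each library.

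Replicate numbers come from the labels. Deviations of core and VP64 libraries from the group means correlated at 0.279, 0.254 and 0.357 for libraries of the same number and at -0.28 to 0.006 for others. Blocked values therefore stand beside calls they change. Deviations from a group mean cancel within the group, so this contrast is partly built in. Core replicates 1, 2 and 3 correlated at 0.112, 0.319 and -0.176 with dCas9 libraries of the same number. With D1399Y libraries of the same number they correlated at 0.426, 0.182 and 0.0145. A pairing by number is thus not settled, and calls made with the block alone depend on it. Replicates differed by 2.61 to 4.40 times the sampling noise (chi-square per degree of freedom), so no library was a duplicate.

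Genes were named by a rule: IL1RN, KDR, CRISPLD2 and EP300, genes past the threshold, the genes of smallest p up to 10 in each direction, and from each list up to 2 members of smallest p. A gene that this rule names is not reported here. Other members and the further blocked calls that are named were chosen after their values were seen. The comparison, its leading genes and the lists were chosen with earlier results of these data known, so lists got no test. Promoter sequences come from RefSeq (GRCh38.p14).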

Additional observations from a re-analysis of the deposited data

How the results depend on the processing

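The direction of the 10 higher and 10 lower genes held in all 17 alternative fits. The count of 6 called genes became 18 with no filter on low counts (17 higher, 1 lower, with more genes tested) and 57 with the replicate block. It became 1 in the fit of all 12 libraries and 1 in that fit with the replicate block, a fit added after the data were seen, and 0 in edgeR with the pool as a covariate, where 213 genes had an unadjusted p under 0.05. The cause of these moves was not tested, beyond the spread of 4 groups entering the 12-library fits. It was 5 to 9 with other scaling, tools, filters or the robust fit, and 4 to 9 when each library was left out.

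IL1RN lost its call with the pool as a covariate (1.67, adjusted p = 0.144). KDR lost its call in the fit of all 12 libraries (2.69, adjusted p = 0.0771), with the pool (2.64, 0.346) and with the 12-library replicate block (2.69, 0.136). CRISPLD2 lost it in the same fits (2.04 with adjusted p = 0.141, 1.96 with 0.575 and 2.04 with 0.214). Leaving out each library gave 1.61 to 1.96 for IL1RN, 2.31 to 3.02 for KDR and 1.93 to 2.13 for CRISPLD2. The 5 libraries of pool CV41 alone called 7 genes.

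Among uncalled list members, leaving out 1 library turned the sign of HSPA1A (-0.038 to 0.41), which has a near-identical copy, LYZ (-0.18 to 0.058) and PDGFRA (-0.64 to 0.0088). For the other 60 genes named by the rule, 968 values kept their direction and side of the threshold, 28 gained a call and 21 lost it. Depth limits the weak genes: KDR had 2 to 7 reads and VSIR 3 to 5 in a VP64 library.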
